A study of Mus musculus with 12 samples.

Results

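The transcription factors through which liver responds to hormones, lipids and nutrients, together with the coregulators that bind them, were followed through fasting in male FVB mice. The members were chosen by gene name, as probes for nuclear receptors (Nr, Ppar, Rxr, Rar, Ror, Esr, Thr, Vdr), their coactivators and corepressors (Ncoa, Ncor), and the forkhead, C/EBP, Krüppel-like, Onecut and CREB families and other liver-enriched factors, with the 3 features (probes numbered by their place in the array design) that hold Ppara, Nr1h3 and Rxra added. They came to 83 probes for 53 of the 6565 genes named on the arrays, among 20280 probes measured.

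Mice were 6 weeks old and were either fed (0 hours) or deprived of chow for 12, 24 or 72 hours in metabolic cages, with an infrared lamp for warmth from 24 hours on. All groups were killed in the morning. Each group had 6 mice and 3 arrays. On an array, RNA pooled from 2 livers was labelled with the green dye (Cy3) and a common reference, pooled from 6 fed livers, with the red dye (Cy5). The dyes were not exchanged. Values are log2 ratios of sample to this reference. A ratio of 0 need not be the fed level of a probe, as the dyes stayed fixed, so changes are read against the fed arrays. A spread between arrays is one between pools, not between mice. Whole liver was extracted, so that fewer cells of a type and less RNA per cell cannot be told apart.

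Nuclear receptors are transcription factors whose activity is set by small molecules such as fatty acids, oxysterols, steroids and thyroid hormone, and some bind DNA as pairs with a retinoid X receptor. Corepressors such as Ncor1 hold target genes silent and coactivators of the Ncoa family help to switch them on. In fasting, falling insulin and rising glucagon and glucocorticoids act on liver through the FoxO, CREB, C/EBP and glucocorticoid receptor proteins, and fatty acids from adipose tissue act through PPARα.

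Not all arrays measured these genes equally well. A probe was called when it passed a Benjamini-Hochberg adjusted p of 0.05 in limma over all probes tested together with a 1.4-fold difference. On replicate 2 of 12 hours, 24 of the 83 probes exceeded the 95th percentile of the 162 negative-control spots, against 77 to 83 on the other 11 arrays. The median signal of all probes was 1.21 times the negative controls' median on that array and 1.56 times on replicate 3 of 24 hours, against 2.04 to 5.66 times elsewhere. These 2 are referred to as the low-signal arrays, a description that rests on this median over all probes of the array. By the share of all probes above the 95th percentile of the negative controls, replicate 2 of 12 hours was low (37%). Replicate 3 of 24 hours was not (87.4%), as the 10 other arrays lay between 83.3% and 98.6%. Differences are given without these 2 arrays unless the text says otherwise, with the values over all arrays beside those of the called members. The images of the low-signal arrays were quantified on the day of fed replicate 1. Fed replicates 2 and 3 were quantified on the day of the 72-hour arrays. No fed array was quantified on the day of the 4 other arrays of 12 and 24 hours, for which day and fasting cannot be told apart. The liver markers Ttr and Apoa1, secreted hepatocyte proteins, were among the bright probes on every array. They were the 2 of 8 listed hepatocyte markers that had a probe. Their summed signal was 106600 to 114800 in fed, 81450 to 100900 at 12 hours, 85840 to 89080 at 24 hours and 71130 to 97260 at 72 hours. Without the low-signal arrays 1, 0 and 1 of these 2 probes lay above fed at 12, 24 and 72 hours, and 1 was called lower at 72 hours. Summed signals of 5 macrophage and leukocyte probes were 6583 to 8144 in fed arrays, 3042 to 5611 at 12 hours, 4800 to 5940 at 24 hours and 5878 to 6733 at 72 hours. Sums for bile duct markers (3 probes) were 1393 to 1729, 1358 to 1568, 1256 to 1453 and 1211 to 1339, and for endothelial and stellate markers (6 probes) 1615 to 2123, 1573 to 1620, 1661 to 1974 and 1412 to 1561. Single probes stood for erythroid cells (Hba-a1, 6890 to 21500 in fed and 6372 to 17480 in fasted arrays), pancreatic acinar cells (Cpa1, 384 to 642 in fed and 238 to 1813 in fasted) and adipocytes (Cfd, 210 to 248 in fed and 197 to 349 in fasted). The part of these shifts in the results was not tested.

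**Figure D1:**
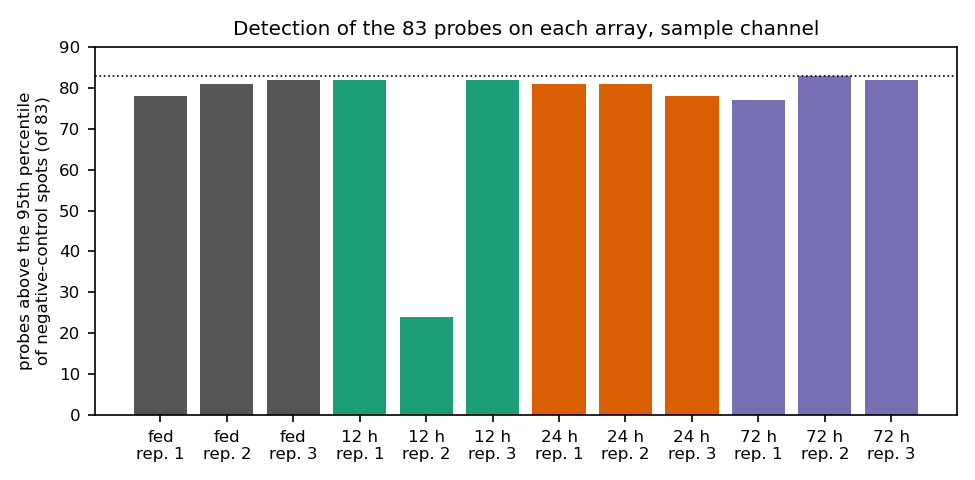
Number of the 83 probes whose sample-channel signal exceeded the 95th percentile of the negative-control spots (vertical axis) on each of the 12 arrays, with a dotted line at 83. The bar of replicate 2 of 12 hours stands at 24, and the others lie between 77 and 83.

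Across all 12 arrays, none of the 83 probes was called at any time point, while without the low-signal arrays 13 probes of 12 genes were called at 1 time point or more. In the fit with all arrays, 0 probes were called at 12, 24 and 72 hours, where 0.00497%, 0.00497% and 0.00996% of all probes tested were called. The smallest adjusted p among the members was 0.956 at 12 hours and 1.00 at 24 and 72 hours (limma, Benjamini-Hochberg), and 1, 2 and 3 of the 83 had an unadjusted p under 0.05. That is 1.2%, 2.41% and 3.61% of them, beside 3.92%, 3.04% and 1.55% of all probes. More probes lay above than below the fed group at each time, 46, 56 and 52 of 83, with medians of 0.08, 0.08 and 0.08 on the log2 scale against -0.01, -0.00 and -0.01 for all probes. Their log2 fold changes spanned -0.55 to 1.09 at 12 hours, -0.44 to 0.91 at 24 hours and -0.39 to 1.48 at 72 hours.

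When the low-signal arrays were left out, 4 probes were called at 12 hours, all higher in fasted liver, 13 at 24 hours (11 higher, 2 lower) and 4 at 72 hours, all higher. These are 4.82%, 15.7% and 4.82% of the members, where 2.6%, 8.81% and 0.837% of all probes were called. In the direction of most calls, the calls among all probes were 1.71% higher at 12 hours, 5.21% higher with 3.61% lower at 24 hours, and 0.687% higher at 72 hours. The 3 comparisons share the fed arrays, so their calls are not independent of each other. Klf9 was called at all 3 times, as was Ncoa4, whose 12-hour call rests on 1 accepted array, Ncor1 at 12 and 24 hours, Cebpd and Foxo1 at 24 and 72 hours, and Cebpa, Cebpb, Klf3, Klf5, Crebl1 and Nr5a2 among others at 24 hours alone, although whether their change differed between times was not tested by this count. With the sample channel alone in place of the ratio to the reference, 20 of the 21 called differences kept their sign but 0 passed at any time. Between arrays quantified on the same day, 19 of these differences could be taken, and 10 kept their sign. All 4 from the 72-hour group did so, against 5 among 12 from the 24-hour group and 1 among 3 from the 12-hour group. The 12- and 24-hour arrays in that comparison were the low-signal ones. For the 24-hour group the sign turned for Klf9, features 1057 and 3883 of Ncor1, Nr5a2, Klf3, Klf5 and Crebl1. With 1 further array left out, 0 to 7, 2 to 17 and 0 to 8 members were called. The 72-hour calls were lost without any one of the fed arrays, those of 12 hours without fed replicate 2 or 3 or either remaining 12-hour array, and at 24 hours 2 were called without fed replicate 3 or 24-hour replicate 2. Over the 10 such fits, the 12-hour calls were kept in 6 for Klf9, Ncoa4 and both probes of Ncor1, and the 72-hour calls in 4 for Ncoa4 and Foxo1, 3 for Cebpd and 2 for Klf9. Those of 24 hours were kept in 10 for Ncoa4, 9 for Klf9, 8 for Klf5 and feature 3883 of Ncor1, 7 for Cebpb and feature 1057 of Ncor1, 6 for Foxo1 and Nr5a2, 5 for Cebpd, 4 for Crebl1, 3 for Klf3 and 2 for Cebpa. Members that are neither among the brightest of their class nor among the largest differences with all arrays, such as Cebpa, Klf3 and feature 1057 of Ncor1, were chosen after their values had been seen.

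**Figure D2:**
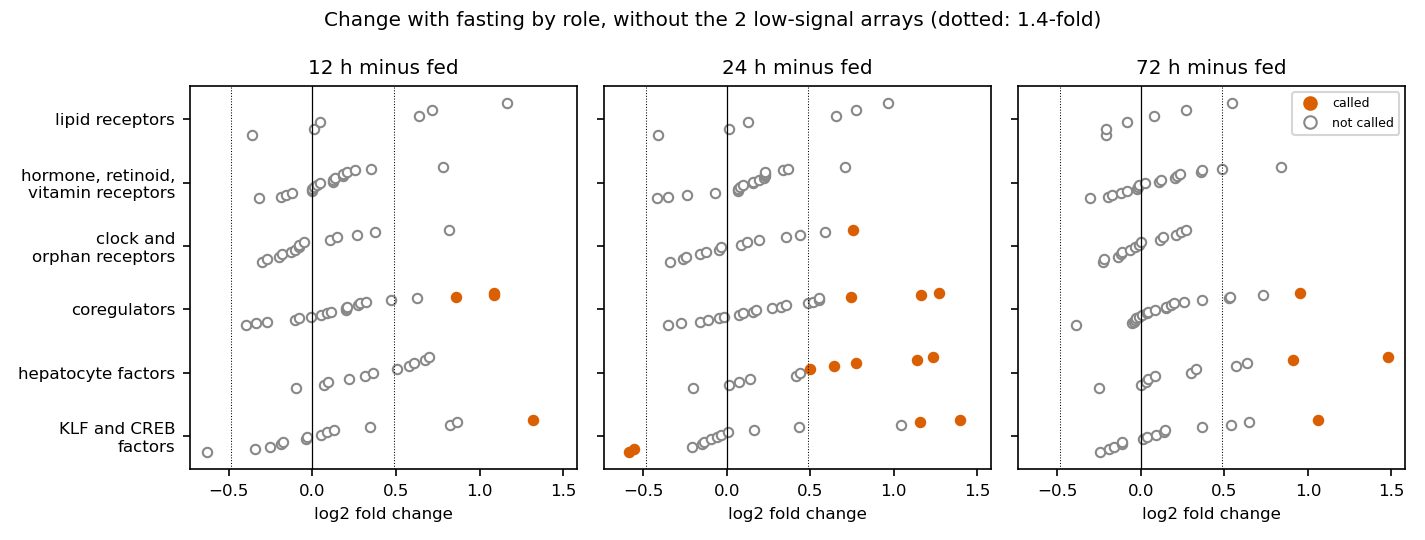
Log2 fold change (horizontal axis) of each of the 83 probes at 12, 24 and 72 hours against fed, without the 2 low-signal arrays, in rows by role. Filled points were called, open points were not, and dotted lines mark 1.4-fold. Called points number 4, 13 and 4, and at 24 hours 5 of them lie among the hepatocyte factors.

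Promoters are shown for 3 called genes of different families and for Ppara, to set the windows in which their regulators could bind beside the values, from the RefSeq start sites of the GRCm38.p6 assembly, as 250 bases before and 50 after the start. Of the 53 member genes 41 were matched, with 61 promoters. Capitals mark the cyclic AMP response half-site TGACG, the forkhead motif GTAAACA and the GC box GGGCGG, each on either strand. Klf9 lies at chr19:23140976-23141275 on the plus strand, Cebpb at chr2:167688665-167688964 on the plus strand, Foxo1 at chr3:52268087-52268386 on the plus strand and Ppara at chr15:85735526-85735825 on the plus strand.
Klf9: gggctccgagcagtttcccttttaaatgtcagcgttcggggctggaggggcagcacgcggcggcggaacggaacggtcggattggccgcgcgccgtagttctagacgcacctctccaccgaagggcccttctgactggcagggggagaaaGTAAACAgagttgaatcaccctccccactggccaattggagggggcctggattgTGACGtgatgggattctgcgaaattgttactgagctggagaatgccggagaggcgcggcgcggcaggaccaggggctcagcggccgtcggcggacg
Cebpb: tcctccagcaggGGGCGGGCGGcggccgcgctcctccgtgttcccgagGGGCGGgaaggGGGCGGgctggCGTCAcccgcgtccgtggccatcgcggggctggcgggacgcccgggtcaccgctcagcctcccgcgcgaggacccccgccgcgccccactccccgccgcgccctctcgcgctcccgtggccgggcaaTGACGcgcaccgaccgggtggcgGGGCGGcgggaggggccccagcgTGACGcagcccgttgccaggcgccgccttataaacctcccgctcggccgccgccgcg
Foxo1: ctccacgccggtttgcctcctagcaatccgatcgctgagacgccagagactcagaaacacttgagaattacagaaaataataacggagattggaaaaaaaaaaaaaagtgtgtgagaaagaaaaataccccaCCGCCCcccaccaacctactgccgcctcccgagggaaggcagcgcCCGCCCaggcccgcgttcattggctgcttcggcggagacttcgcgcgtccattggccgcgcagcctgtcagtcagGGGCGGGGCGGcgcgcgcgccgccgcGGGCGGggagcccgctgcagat
Ppara: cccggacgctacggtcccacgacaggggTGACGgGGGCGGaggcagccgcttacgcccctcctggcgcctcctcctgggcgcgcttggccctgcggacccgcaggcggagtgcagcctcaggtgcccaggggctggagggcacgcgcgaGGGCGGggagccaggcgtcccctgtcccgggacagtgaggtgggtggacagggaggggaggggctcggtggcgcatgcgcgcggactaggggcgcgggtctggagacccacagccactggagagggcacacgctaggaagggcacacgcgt

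The Klf9 promoter held 1 TGACG and 1 GTAAACA and no GC box, at 63.3% G and C. That of Cebpb held 3 TGACG and 5 GC boxes, some of them overlapping, at 80.7%, that of Foxo1 5 GC boxes at 61.3%, and that of Ppara 1 TGACG and 2 GC boxes at 74.7%. Over the 61 member promoters, 31.1% held a TGACG, 6.56% a GTAAACA and 52.5% a GGGCGG, beside 20.8%, 3.65% and 35.7% of the 32851 promoters of all genes. The nuclear receptor half-site AGGTCA was in 9.84% of them against 16.3%, its direct repeat AGGTCANAGGTCA in 0% against 0.0396%, and the glucocorticoid receptor half-site AGAACA in 13.1% against 19%. A match is a description of these letters in a window of this length and says nothing about binding.

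Among lipid-sensing receptors and their partners (6 probes of 6 genes), Ppara stood above the fed arrays at 12 and 24 hours but not at 72 hours, without reaching the threshold. Ppara encodes PPARα, the fatty acid receptor that switches on fatty acid oxidation and ketone synthesis in the fasted liver. Its log2 ratio was 0.39, 0.01 and -0.13 on the fed arrays, 1.4, -0.12 and 1.11 at 12 hours, 0.89, 1.23 and 0.04 at 24 hours, and -0.80, -0.08 and 0.52 at 72 hours. The low value at 12 hours and that at 24 hours belong to the low-signal arrays, and the other 4 exceeded every fed array. Without those 2 arrays, the difference from fed was 1.17 ± 0.31 (SE, log2) at 12 hours, with a 95% interval from 0.49 to 1.85 and an adjusted p of 0.0678 in limma. It was 0.97 at 24 hours (interval 0.29 to 1.65, adjusted p = 0.0686 in limma) and -0.21 at 72 hours (-0.82 to 0.40, adjusted p = 0.82). From 24 to 72 hours Ppara was lower by a log2 difference of -1.18 (interval -1.86 to -0.50, adjusted p = 0.074 in limma), and 3 of 3 arrays at 72 hours lay below both other 24-hour arrays. With all arrays the differences from fed were 0.71, 0.63 and -0.21. Within the day of quantification, Ppara was at -0.51 at 12 hours and -0.35 at 24 hours, where the fasted array was a low-signal one. At 72 hours it was at -0.06. The 4 arrays above the fed arrays were quantified on a day without a fed array.

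Nr1h3 encodes LXRα, the oxysterol receptor that directs cholesterol disposal and lipogenesis. Log2 ratios were 0.64, 0.51 and -0.01 in fed, 1.31, -1.17 and 0.73 at 12 hours, 0.84, 1.23 and -0.72 at 24 hours, and -0.01, 0.45 and 0.45 at 72 hours. The most negative value of each of the 12- and 24-hour groups came from a low-signal array. Without them it was 0.64 and 0.66 above fed (adjusted p = 0.149 and 0.0945 in limma), and with them -0.09 and 0.07. At 72 hours it was -0.08. Within the day of quantification, Nr1h3 was at -1.81 at 12 hours and -1.36 at 24 hours, both on low-signal arrays, and at 0.05 at 72 hours.

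Rxra, the main retinoid X receptor of liver and the partner of both, lay below the fed level where the low-signal arrays were left out. Its log2 ratio was 0.23, 0.08 and -0.02 in fed, -0.28, 1.88 and -0.24 at 12 hours, -0.09, -0.53 and 0.45 at 24 hours, and -0.11, 0.00 and -0.22 at 72 hours. The values of 1.88 and 0.45 are those of the low-signal arrays, so that the 12-hour difference was 0.35 with all arrays and -0.36 without them (adjusted p = 0.169 in limma). At 24 and 72 hours it was -0.41 and -0.21 (adjusted p = 0.0848 and 0.535). The sister receptor Rxrb had log2 ratios of 1.23, 0.36 and 0.39 in fed and of 0.65 to 1.71 over the 9 fasted arrays, which overlap, and differences of 0.71, 0.77 and 0.54 without the low-signal arrays, none of which was called. Rxrg and Ppard, the third retinoid X receptor and the broadly expressed PPARδ, differed from fed by 0.05, 0.13 and 0.08 and by 0.01, 0.01 and 0.27. Over the 6 probes, 5, 5 and 3 lay above fed without the low-signal arrays and 3, 4 and 3 with them, and 0 were called.

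**Figure D3:**
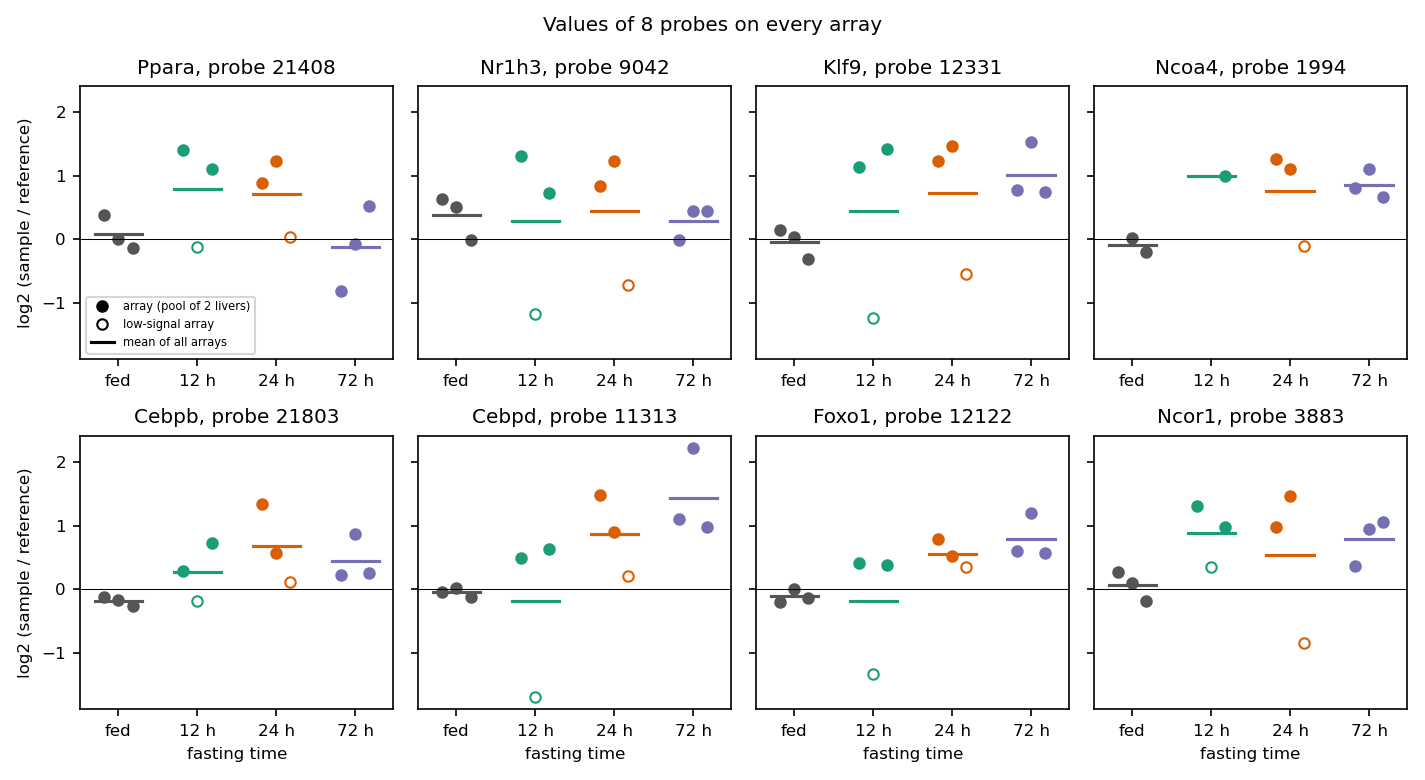
Log2 ratio of sample to the fed reference (vertical axis) on each array of the 4 groups for Ppara, Nr1h3, Klf9 (feature 12331), Ncoa4, Cebpb, Cebpd, Foxo1 and Ncor1 (feature 3883), 1 panel each. Low-signal arrays are open points, and a line marks the mean of a group over all its arrays. For Klf9 the fed arrays lie between -0.31 and 0.15 and the 7 other fasted arrays between 0.75 and 1.52.

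The hepatocyte factors (11 probes of 9 genes) were the class with the most called probes at 24 hours. Without the low-signal arrays, 10 of 11 lay above fed at each time, with medians of 0.36, 0.44 and 0.30 against 0.10, 0.16 and 0.08 for all 83 members. Of these, 0, 5 and 2 were called. With all arrays, 6, 9 and 10 of 11 lay above fed (medians 0.14, 0.11 and 0.30) and 0 were called.

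Foxo1, the forkhead factor that insulin signalling keeps out of the nucleus and that drives gluconeogenic genes, was called at 24 and 72 hours. Arrays gave log2 ratios of -0.21, -0.00 and -0.13 in fed, 0.41, -1.33 and 0.38 at 12 hours, 0.79, 0.53 and 0.34 at 24 hours, and 0.61, 1.20 and 0.57 at 72 hours. Every 24- and 72-hour array lay above every fed array, the low-signal array of 24 hours included. Without the low-signal arrays the difference from fed was 0.77 at 24 hours (1.71-fold, limma's adjusted p = 0.0264) and 0.91 at 72 hours (1.88-fold, adjusted p = 0.0339), and over all arrays 0.67 and 0.91. At 12 hours it was 0.51 and was not called (adjusted p = 0.132). Compared within the day of quantification, Foxo1 was 0.55 above the fed array of that day at 24 hours, 0.86 above at 72 hours, and at -1.13 at 12 hours, which rests on the low-signal array.

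Cebpd and Cebpb encode C/EBPδ and C/EBPβ, leucine-zipper proteins that glucocorticoids, cyclic AMP and inflammatory signals induce in liver. For Cebpd the log2 ratio was -0.04, 0.03 and -0.12 in fed, 0.49, -1.69 and 0.63 at 12 hours, 1.48, 0.90 and 0.22 at 24 hours, and 1.11, 2.22 and 0.97 at 72 hours. Fed and 72-hour arrays did not overlap, and replicate 2 of 72 hours was the highest of all. Cebpd was 2.36-fold higher at 24 hours (log2 1.24 ± 0.31 SE, adjusted p = 0.0325 in limma without the low-signal arrays) and 2.79-fold higher at 72 hours (log2 1.48, adjusted p = 0.04), against log2 0.91 and 1.48 with all arrays, and it had the largest difference of any member at 72 hours. Cebpb had log2 ratios of -0.13, -0.17 and -0.26 in fed, 0.29, -0.19 and 0.73 at 12 hours, 1.34, 0.56 and 0.12 at 24 hours, and 0.22, 0.86 and 0.26 at 72 hours. As for Cebpd and Foxo1, its 24- and 72-hour arrays all exceeded the fed arrays, although those of 24 hours were far apart. It was called at 24 hours (2.2-fold, log2 1.14 ± 0.25 SE, limma's adjusted p = 0.0215, and 0.86 with all arrays) and not at 12 or 72 hours (0.70 and 0.63, adjusted p = 0.132 and 0.224).

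Cebpa encodes C/EBPα, which maintains the differentiated hepatocyte and is needed for gluconeogenesis around birth. Its log2 ratio was 0.32, 0.42 and 0.51 in fed, 0.54, 0.20 and 0.49 at 12 hours, 1.04, 1.08 and 0.35 at 24 hours, and 0.48, 1.18 and 0.58 at 72 hours. It was 1.56-fold higher at 24 hours without the low-signal arrays (adjusted p = 0.0466 in limma), with log2 differences of 0.64 without and 0.40 with them, and all fed values lay above the reference although both are fed liver. Cebpg, a partner of the other C/EBP proteins, went the other way at 72 hours on feature 8922, with log2 ratios of -0.27, -0.57 and -0.36 below the fed range of -0.21 to -0.11, a difference of -0.25 that was not called (adjusted p = 0.415 in limma). Its other probe, feature 519, stood at 0.09. The pioneer factors Foxa1 and Foxa2, which open hepatocyte chromatin, differed from fed by -0.10, -0.20 and 0.03 and by 0.67, 0.42 and 0.00.

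Among Krüppel-like and CREB factors (14 probes of 10 genes), Klf9 was higher at every time point and Klf5 and Crebl1 were the called decreases. Klf9 is a zinc-finger repressor that glucocorticoids and thyroid hormone induce. On feature 12331 its log2 ratio was 0.15, 0.04 and -0.31 in fed, 1.13, -1.23 and 1.42 at 12 hours, 1.24, 1.47 and -0.54 at 24 hours, and 0.78, 1.52 and 0.75 at 72 hours. All fasted arrays other than the low-signal ones exceeded the fed arrays, and both low-signal arrays lay below them. Without these, Klf9 was 2.5-fold higher at 12 hours (log2 1.32 ± 0.23 SE, interval 0.82 to 1.83, adjusted p = 0.0246 in limma), 2.64-fold at 24 hours (log2 1.4, adjusted p = 0.0096) and 2.08-fold at 72 hours (log2 1.06, adjusted p = 0.0439). With all arrays the differences were 0.48, 0.77 and 1.06. Within the day of quantification, it was above fed at 72 hours (1.16) and below fed at 12 and 24 hours (-1.38 and -0.69), where the fasted array of that day was a low-signal one.

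The second probe of Klf9, feature 6654, had log2 ratios of 0.51, 0.14 and -0.00 in fed, 1.10, 0.62 and 1.07 at 12 hours, 1.13, 1.4 and 0.21 at 24 hours, and 0.62, 1.73 and 0.25 at 72 hours. At 12 hours all its arrays lay above the fed arrays, the low-signal array included. Its differences of 0.86, 1.04 and 0.65 without the low-signal arrays had the sign of the first probe's but were not called (adjusted p = 0.165, 0.0707 and 0.389 in limma).

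Klf3, a repressor that acts through CtBP, had log2 ratios of -0.51, 0.11 and -0.61 in fed and of 1.07, 0.56 and -0.63 at 24 hours. It was 2.23-fold higher there without the low-signal array (adjusted p = 0.0415 in limma), with log2 differences of 1.15 without and 0.67 with it. Klf5, an epithelial zinc-finger factor, had log2 ratios of 0.24 and 0.17 on the 2 fed arrays with an accepted spot, -0.38, -0.31 and 0.55 at 24 hours and 0.05 to 0.12 at 72 hours. It was 1.47-fold lower at 24 hours (log2 -0.55, adjusted p = 0.0183, and -0.26 with all arrays), but in the sample channel alone the difference was 0.06, and the reference channel, which holds the same RNA on every array, was 0.61 higher. Crebl1, now Atf6b, an endoplasmic reticulum stress factor, had log2 ratios of -0.20, -0.01 and 0.21 in fed, -0.72, 0.27 and -0.54 at 12 hours, and -0.70, -0.47 and -0.15 at 24 hours. It was 1.5-fold lower at 24 hours (log2 -0.59, adjusted p = 0.0362, and -0.44 with all arrays), of which -0.27 stood in the sample channel and 0.31 in the reference channel. At 12 hours its difference of -0.63 was not called (adjusted p = 0.0525).

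Klf1, the erythroid member of the family, was 0.43 above fed at 24 hours with an adjusted p of 0.0412 in limma but did not reach 1.4-fold. Klf2, which endothelial cells express under flow, had 72-hour log2 ratios of 0.23, 0.39 and 0.46 above the fed range of -0.23 to 0.18, a difference of 0.37 that was not called (adjusted p = 0.342). The 4 probes of Klf7 differed from fed by between -0.26 and 0.09 over the 3 times without the low-signal arrays. Creb3, a membrane-bound CREB protein, had 1 fed array with an accepted spot and differed by -0.18, -0.06 and -0.19. Klf16 differed by 0.13, 0.16 and 0.15.

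Coregulators (20 probes of 8 genes) held 3 of the called probes at 12 hours, 3 at 24 hours and 1 at 72 hours, from Ncoa4 and Ncor1. Ncoa4 was described as a coactivator of the androgen receptor and is the receptor that delivers ferritin to autophagy. Its log2 ratio was 0.02 and -0.20 on the 2 fed arrays with an accepted spot, 1.00 on the only 12-hour array with one, 1.26, 1.10 and -0.10 at 24 hours, and 0.81, 1.11 and 0.67 at 72 hours. Every accepted fasted array but the low-signal one of 24 hours lay above both fed arrays. It was 2.13-fold higher at 12 hours (log2 1.09 ± 0.20 SE, adjusted p = 0.0363 in limma, with that single array assumed to vary as the other groups do). It was 2.41-fold higher at 24 hours (log2 1.27, adjusted p = 0.00732) and 1.93-fold at 72 hours (log2 0.95, adjusted p = 0.0339), all without the low-signal arrays, and with all arrays the differences were 1.09, 0.84 and 0.95.

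Ncor1, the corepressor that recruits histone deacetylase 3 to unliganded receptors, was measured by 8 probes that disagreed. On feature 3883 its log2 ratio was 0.27, 0.10 and -0.19 in fed, 1.31, 0.35 and 0.98 at 12 hours, 0.98, 1.47 and -0.85 at 24 hours, and 0.37, 0.95 and 1.05 at 72 hours. At 12 and 72 hours all arrays exceeded the fed arrays. It was 2.12-fold higher at 12 hours (log2 1.08, adjusted p = 0.0381 in limma) and log2 1.17 higher at 24 hours (adjusted p = 0.0161), and feature 1057 was 0.86 and 0.74 higher (adjusted p = 0.0322 and 0.025). With all arrays these were 0.82 and 0.48 on feature 3883 and 0.40 and 0.46 on feature 1057. At 72 hours both were above fed by 0.73 and 0.53 and were not called (adjusted p = 0.13 and 0.137). The other 6 probes were not called at any time, and at 24 hours they ranged from -0.27 on feature 5887 to 0.55 on feature 16600. Among these, feature 10821 is annotated in the files as possibly on the wrong strand. Over the 20 genes with more than 1 probe, all probes of a gene had the same sign at 12, 24 and 72 hours for 8, 9 and 9 genes.

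**Figure D4:**
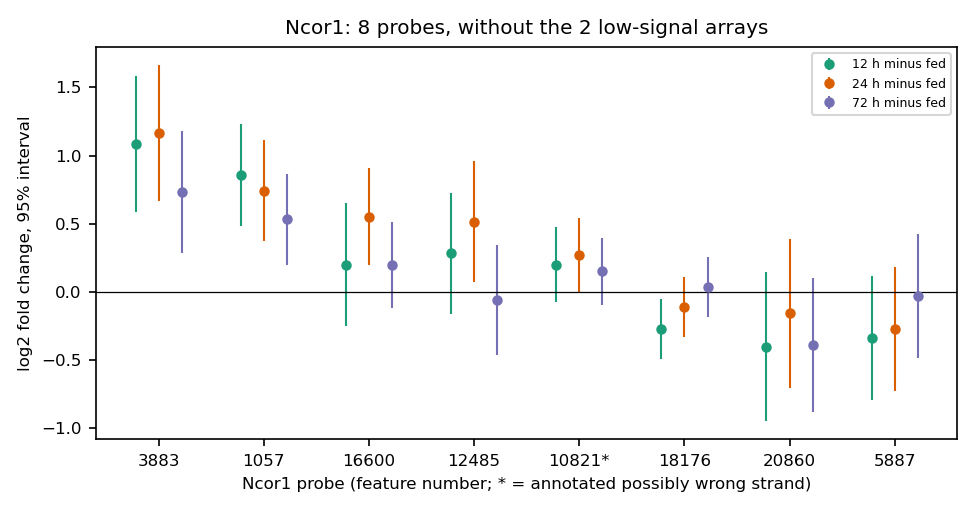
Log2 fold change with its 95% interval (vertical axis) of the 8 Ncor1 probes at 12, 24 and 72 hours against fed, without the low-signal arrays. Features 1057 and 3883 lie between 0.53 and 1.17, and the 6 others between -0.40 and 0.55.

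The remaining coregulators were not called. Pparbp, now Med1, the Mediator subunit that nuclear receptors contact, stood at 0.47, 0.49 and 0.26 above fed (adjusted p = 0.0985, 0.0565 and 0.434 in limma). The p160 coactivators Ncoa1, Ncoa2 and Ncoa3, which bring histone acetyltransferases to bound receptors, were measured by 6 probes with differences between -0.10 and 0.62. The highest was feature 22121 of Ncoa2, at 0.62, 0.55 and 0.53 (adjusted p = 0.0624, 0.0503 and 0.128), while its other probes, features 857 and 12548, lay between 0.04 and 0.16. On feature 13115 of Ncoa1, 3 of 3 arrays at 72 hours lay above the fed range.

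Among the receptors for steroid and thyroid hormones, retinoids and vitamin D (18 probes of 10 genes), 0 probes were called at any time, and 12, 14 and 10 lay above fed without the low-signal arrays. Nr3c1 encodes the glucocorticoid receptor and had 2 probes. Feature 1691 stood above fed by 0.21, 0.19 and 0.36 at 12, 24 and 72 hours, and feature 833 by 0.25, 0.23 and 0.20. With all arrays the 12-hour value was -0.55 on feature 833 and -0.38 on feature 1691. Replicate 2 of 12 hours stood at -2.28 on feature 833 and -1.53 on feature 1691. Esrra encodes the estrogen-related receptor α, which with PGC-1α controls mitochondrial energy genes. Feature 13343 had log2 ratios of 0.29, 0.35 and -0.12 in fed, 1.05, -0.18 and 0.87 at 12 hours, 0.78, 0.98 and -0.87 at 24 hours, and 1.10, 1.34 and 0.61 at 72 hours. All fasted arrays but the low-signal ones lay above the fed arrays, at 0.78, 0.71 and 0.84 (adjusted p = 0.0683, 0.0527 and 0.0696 in limma), whereas feature 5447 of the same gene stood at 0.05, 0.16 and -0.01.

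Esr1, the estrogen receptor α, had 72-hour log2 ratios of 0.32, 0.57 and 0.38 on feature 10441 against -0.12 to 0.00 in fed, a difference of 0.49 (adjusted p = 0.0572 in limma). Thra, the thyroid hormone receptor α, also had all 72-hour arrays (0.30, 0.77 and 0.36) above the fed range of 0.07 to 0.18, at a difference of 0.36 (adjusted p = 0.243). Below the fed range at 72 hours were Esrrg on feature 9373 (-0.30) and the retinoic acid receptor Rarb on feature 11185 (-0.20). For Vdr, the vitamin D receptor that hepatocytes hardly express, feature 5302 differed by -0.32, -0.42 and -0.08 and feature 18639 by 0.14, 0.07 and 0.22. Rara differed by 0.18, 0.16 and 0.24 and feature 427 of Esrrb by 0.01, -0.07 and 0.03, none of them called.

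Of the clock and orphan receptors (14 probes of 10 genes), 1 was called. Nr5a2 encodes LRH-1, which drives bile acid and reverse cholesterol transport genes. On feature 3565 its log2 ratio was -0.13, -0.06 and -0.05 in fed, 0.58, -0.97 and 0.01 at 12 hours, 0.40, 0.95 and -0.64 at 24 hours, and 0.10, 0.28 and 0.02 at 72 hours. It was 1.69-fold higher at 24 hours without the low-signal array (log2 0.75, adjusted p = 0.0335 in limma), against log2 0.32 with it and 0.48 without 24-hour replicate 2 as well (adjusted p = 0.257), and the gene's brighter probe, feature 21883, stood at -0.24 there (adjusted p = 0.271). Rora, the clock receptor that activates Bmal1, stood at 0.81, 0.59 and 0.24 above fed with 1 fed array accepted (adjusted p = 0.0585, 0.0766 and 0.644). Nr0b2, the SHP repressor that bile acids induce, differed by 0.15, 0.12 and -0.12.

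The COUP transcription factors Nr2f1 and Nr2f2 differed in different directions between probes. Nr2f1 had 72-hour log2 ratios of -0.18, -0.32 and -0.38 below the fed range of -0.14 to 0.08 (difference -0.23, adjusted p = 0.377 in limma), and feature 6886 of Nr2f2 stood at -0.08, 0.35 and -0.11. Feature 12863 of Nr6a1, the germ cell nuclear factor, was 0.44 above fed at 24 hours with an adjusted p of 0.0439 but under 1.4-fold, and feature 20044 was at -0.20, -0.12 and -0.14. Nr2e1, a receptor of neural progenitors, Nr4a2, an immediate-early receptor, and Nr5a1, a receptor of steroid-producing tissues, differed by between -0.27 and 0.11.

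Groups were also compared by overlap on all arrays, which uses no estimate of the spread. At 12 hours 4 of 55 probes with every array accepted lay above all fed arrays and 2 below, at 24 hours 5 above and 1 below of 57, and at 72 hours 17 above and 4 below of 53. Over all probes with every array accepted, 12.6%, 11.5% and 18.8% did not overlap. At 72 hours, when no low-signal array was in either group, the 17 probes above came from 15 genes and included Cebpb, Cebpd, Foxo1, Klf9, Klf2, Klf4, Thra and 2 probes of Ncor1. Within the day of quantification, members above fed numbered 47 of 78 at 72 hours, 36 of 79 at 12 hours and 35 of 80 for 24 hours, the last 2 counts resting on 1 low-signal array each.

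**Figure D5:**
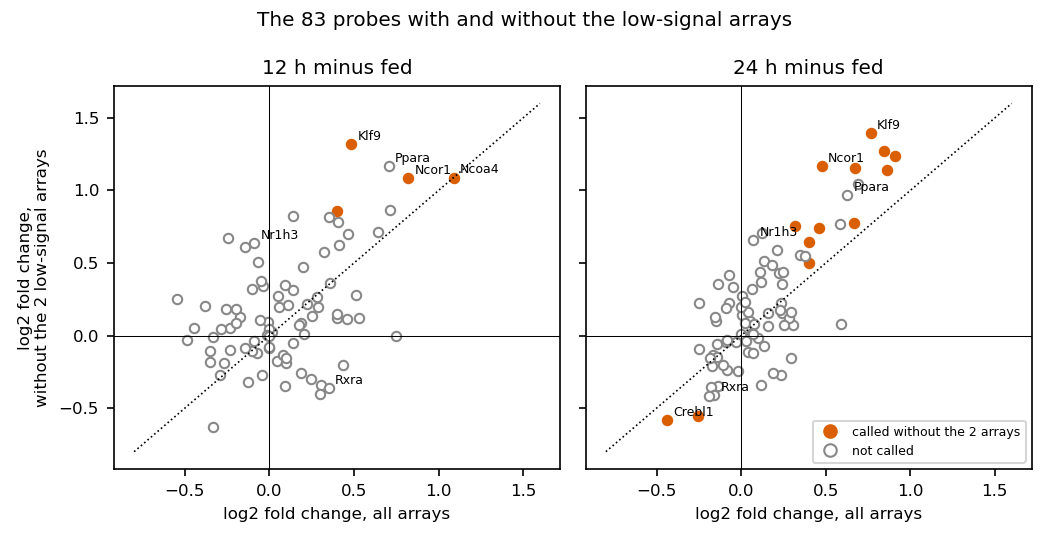
Log2 fold change of each of the 83 probes with all arrays (horizontal axis) against that without the 2 low-signal arrays (vertical axis), at 12 and 24 hours. Filled points were called without the 2 arrays, and the dotted line marks equal values. Klf9 (feature 12331) moved from 0.48 to 1.32 and from 0.77 to 1.4, and Rxra from 0.35 to -0.36 at 12 hours.

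From 12 to 24 hours and from 24 to 72 hours, 0 members were called with all arrays (0% and 0% of all probes called) or without the low-signal arrays (0% and 1.3%). At an unadjusted p under 0.05 without those arrays, 1 and 14 of the 83 differed, which is 1.2% and 16.9% of them beside 3.57% and 22.9% of all probes. For the later step the members ranged from -1.18, for Ppara, to 0.44, for Klf5, and 7 were at least 1.4-fold lower and 0 higher, where 10.4% of all probes differed by as much in either direction. These included Nr1h3 (-0.74, adjusted p = 0.114 in limma), feature 11185 of Rarb (-0.53, adjusted p = 0.0605), feature 3565 of Nr5a2 (-0.54, adjusted p = 0.133) and feature 12485 of Ncor1 (-0.57, adjusted p = 0.115). The smallest adjusted p was 0.0565, for Klf5.

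The genes that these factors are known to control were taken from 6 lists written by hand, some of whose genes stand in more than one list. Beside their counts, 45.1%, 48.6% and 46.6% of all probes lay above fed at 12, 24 and 72 hours without the low-signal arrays. In either direction 2.6%, 8.81% and 0.837% of all probes were called, and 1.3% from 24 to 72 hours. Of 44 PPARα targets 22 genes had a probe (23 probes). Without the low-signal arrays 21, 21 and 13 of 23 lay above fed at 12, 24 and 72 hours, with medians of 1.02, 0.88 and 0.08, and 8 were called higher and 1 lower at each of the first 2 times and 0 at 72 hours. From 24 to 72 hours 7 were called lower and 0 higher. With all arrays 20, 21 and 13 lay above fed (medians 0.57, 0.58 and 0.08), and 0 were called. Among the brightest were Slc27a2, which activates very long-chain fatty acids (1.08, 0.77 and 0.78, not called) and Acsl1, an acyl-CoA synthetase (1.95, 1.11 and 0.16, adjusted p = 0.00814, 0.0229 and 0.828 in limma). Cd36, the fatty acid transporter, was the called decrease, at -0.60 and -0.63 (adjusted p = 0.0439 and 0.0204).

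Of 24 glucocorticoid receptor targets 13 had a probe, and 11, 12 and 13 of them lay above fed without the low-signal arrays, at medians of 0.66, 0.93 and 0.96. Of these, 4, 6 and 5 were called higher and 0, 1 and 0 lower, and with all arrays 1, 1 and 2 were called higher. Mt1, the metal-binding metallothionein 1, was 3.02, 2.47 and 3.51 above fed with all arrays (adjusted p = 0.00469, 0.0107 and 0.000389 in limma). Tdo2, which degrades tryptophan, stood at 0.43, 0.18 and 0.86 without the low-signal arrays and was not called, and Fkbp4, a chaperone of steroid receptors, was lower at 24 hours (-0.58, adjusted p = 0.0213). Of 31 targets of CREB and FoxO proteins 12 had a probe (14 probes), of which 2, 4 and 3 were called higher and 0 lower, with 11, 12 and 10 above fed and medians of 0.27, 0.26 and 0.47. Pck1, the gluconeogenic enzyme also listed among the glucocorticoid targets, was 1.01, 1.11 and 0.88 above fed (adjusted p = 0.0159, 0.00555 and 0.022). Slc37a4, the glucose 6-phosphate transporter, reached 2.09 at 72 hours (adjusted p = 0.0057). Feature 16802 of Got1, an aspartate aminotransferase, was called at 24 hours (2.18, adjusted p = 0.0198).

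In each of the other 3 lists at most 3 probes were called in a comparison with fed. Of 26 LXR and SREBP targets 11 had a probe (12 probes), of which 6, 6 and 4 lay above fed (medians 0.05, -0.04 and -0.14), 0, 1 and 0 were called higher and 0, 2 and 1 lower. Scd1, the desaturase that makes oleate, was lower at 24 and 72 hours (-1.38 and -1.56, adjusted p = 0.00634 and 0.00439 in limma), Insig1, which restrains SREBP, was lower at 24 hours (-1.17, adjusted p = 0.0208), and Apoe stood at -0.06, -0.15 and 0.01. Of 20 FXR and bile acid genes 6 had a probe, of which 6, 6 and 2 lay above fed (medians 0.51, 0.39 and -0.32) and 1, 1 and 0 were called higher. Cyp7b1, of the alternative bile acid pathway, was among these at 12 hours (1.36, adjusted p = 0.0399). Of 24 CAR and PXR targets 7 had a probe (8 probes), with 5, 5 and 3 above fed (medians 0.37, 0.25 and -0.11), 0, 2 and 1 called higher and 0, 1 and 0 lower, and the bright Aldh1a1, Ephx1 and Alas1 were not called. With all arrays 0 probes of these 3 lists and of the CREB and FoxO list were called.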

How the data were processed

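The deposited scanner files hold spot intensities that the authors quantified with Agilent Feature Extraction 6.1.1, as medians over pixels for spot and local background in 2 channels, not normalized. The log10 ratios in the same deposited files were background-subtracted and dye-normalized by that software, the deposited value table holds them with the sign turned, and they were used as an alternative. The authors themselves subtracted the background, normalized by quantiles and tested with a Split-Factor ANOVA.

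Of 21446 spots, 1075 control and 91 retired spots were left out, and 20280 probes remained. Intensities were background-corrected with limma's normexp method (offset 50), quantile-normalized over 24 channels and turned into log2 ratios of sample to reference. Spots marked as outliers were set to missing (24.7% and 14.1% on replicates 2 and 3 of the fed group, at most 6.29% elsewhere), and 34 members lost at least 1 array and 5 had 1 fed array left. A probe was tested when every array of 1 group or more had its sample signal well above background, as held for all 83 members. Groups from the titles and source names were compared with lmFit and eBayes in limma 3.58.1 (R 4.3.3), with 1 spread per probe shared by 4 groups. Arrays are pools, and their number limits the precision. The code was tested on simulated data.

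Alternatives were other normalizations, background corrections, filters, array weights, the quantification day and the replicate number as blocks, and arrays left out. Members, gene lists and tests were chosen with earlier results of these data known. Named members are the 4 brightest probes of each class, the 5 largest differences in each direction at each time in the fit with all arrays, and Ppara, Nr1h3 and Rxra. Other members were named to account for each class and its called probes, chosen after their values had been seen. Old names were updated through RefSeq symbols (4326 probes), synonyms (4126) and accessions (5), and 11823 probes had no match. Columns of the authors' own comparisons were not used here. A few of these genes and 1 list are not reported here.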

Additional observations from a re-analysis of the deposited data

Results flagged for a closer look

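Klf4, a Krüppel-like factor of stem and epithelial cells (feature 17291), stood on opposite sides of the fed arrays at 24 and 72 hours. Its log2 ratio was -0.06, -0.07 and -0.05 in fed, -0.11, -0.27 and -0.29 at 24 hours, and -0.03, -0.04 and -0.00 at 72 hours, so that every 24-hour array lay below and every 72-hour array above the fed arrays. The differences from fed were -0.169 and 0.0349 on the log2 scale, neither of which was called (adjusted p = 1.00 in limma for both). From 24 to 72 hours the difference was 0.20 and was not called (adjusted p = 1.00 in limma, unadjusted p = 0.136), and the low-signal array of 24 hours held the lowest value.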

How the results depend on the processing

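With the sample channel alone, loess, the ratio of the scanner software, plain subtraction of the background, no filter on dim probes, a filter on all 12 arrays, outlier spots kept, only the 2 groups compared, or any single array left out (0 to 0 in each comparison), 0 members were called, as in the fit with all arrays. Deviations from the group mean correlated from -0.590 to 0.585 between arrays with the same replicate number, and from -0.671 to 0.670 between others. The group means include the low-signal arrays, so these correlations cannot show whether the replicate numbers pair the arrays. With the replicate number as a block 0 members were called. Array weights gave 15, 18, 11, 0 and 1 called members at 12, 24 and 72 hours against fed, 24 against 12 hours and 72 against 24 hours. Leaving out both low-signal arrays gave 4, 13, 4, 0 and 0, and the quantification day as a block 20, 9, 1, 0 and 13. Of all probes, array weights called 9.53%, 10.5%, 4.11%, 0.9% and 4.26%, and the day as a block 23.2%, 12%, 0.0598%, 0% and 10.6%. With the day as a block, 10 members were called higher and 10 lower at 12 hours (34 of 83 above fed, median -0.18) and 5 higher and 4 lower at 24 hours (35 of 83, median -0.11).

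Other combinations were chosen after seeing the data. Without the low-signal arrays, loess gave 6, 9, 5, 0 and 0, the scanner's ratio 3, 15, 0, 0 and 2, the sample channel alone 0 in each, and leaving them out before normalization 4, 13, 4, 0 and 0. With 1 further array left out the counts ranged from 0 to 7, 2 to 17, 0 to 8, 0 to 0 and 0 to 3, with 16, 15 and 17 at 24 hours without replicate 1, 2 or 3 of 72 hours. At 12 hours 0 were called without replicate 2 or 3 of fed or without either 12-hour array. At 24 hours 2 were called without replicate 3 of fed or replicate 2 of 24 hours, and at 72 hours 0 without any one fed array.

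Over the members named by the rule, the sign differed from that with all arrays in 242 of 3134 values under planned settings and in 128 of 516 under those added, among them Rxra at 12 hours (0.35 with all arrays, -0.36 without the low-signal ones). Sign and threshold both changed for Nr1h3 at 12 hours with array weights (0.62, adjusted p = 0.0436 in limma) and at 24 hours with the day as a block (-1.50, adjusted p = 0.0291), for Klf9 (feature 12331) at 12 hours with the day as a block (-1.18, adjusted p = 0.0456), and for Nr2f1 at 24 hours with the scanner's ratio without the low-signal arrays (-0.52, adjusted p = 0.045). The cause was not tested.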

Other observations

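The reference channel holds the same fed RNA on every array. For the called members its difference between groups ran from -0.37 to 0.61 on the log2 scale without the low-signal arrays, with the highest at Klf5 and the lowest at Klf9 at 72 hours, where the ratio differed by 1.06 and the sample channel by 0.69.

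Members varied more between arrays in fasted than in fed liver at 12 and 24 hours. Their median SD of the log2 ratio was 0.126 in fed and 0.451, 0.365 and 0.152 in the 3 fasted groups in order of time. The low-signal arrays belong to the first 2 of these.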
